A study of Homo sapiens with 4 samples.

Results

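Ephrins and Eph receptors were followed in LNCaP cells, an established human prostate cancer line, after overexpression of the homeobox transcription factor HOXD13. The 10 genes are EFNA1, EFNA3, EFNA4, EFNA5, EFNB1, EFNB2, EPHA7, EPHB2, EPHB3 and EPHB4, matched by symbol among the 19205 genes of the deposited table. They were chosen by the rise of EFNA5 between the groups compared here, so the difference of EFNA5 is given as a description with no test; the other 9 genes were taken as members of its family. The 10 genes are not the whole family, whose other 12 genes are described after them. Polyadenylated RNA was sequenced in 4 libraries, 2 from LNCaP cells overexpressing HOXD13 and 2 from LNCaP cells carrying the empty vector. Both groups had been infected with lentivirus and selected with puromycin. The labels do not state which promoter drives HOXD13, whether the cells are pools or clones, or whether each replicate was a culture of its own, so the p-values rest on a spread that could be technical.

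Eph receptors form the largest family of receptor tyrosine kinases, and their ligands, the ephrins, are bound to the surface of the neighbouring cell. Ephrin-A ligands are held by a glycosylphosphatidylinositol anchor and mainly bind EphA receptors, whereas ephrin-B ligands span the membrane and mainly bind EphB receptors; binding across the classes is known, for example of ephrin-A5 to EphB2. Contact sends a forward signal into the receptor cell and a reverse signal into the ephrin cell, and in epithelia these signals are known for sorting cells, setting boundaries and steering repulsion or adhesion between cells.

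Promoter windows of 300 bases, from 250 bases before to 50 bases after the annotated start, are shown for 3 members. EFNA5 and EFNA3 are shown because their profiles over the libraries were close to each other. EFNB2 is shown as the member with the most negative difference. EPHA7, with the most positive log2 fold change of the members (0.57, edgeR), is not shown. The windows shown are RefSeq sequences on GRCh38.p14, 5′ to 3′ on the strand of the gene. Their positions are chr5:107670888-107671187 (minus strand) for EFNA5, chr1:155078587-155078886 (plus strand) for EFNA3 and chr13:106535613-106535912 (minus strand) for EFNB2. Capitals mark matches to TTTAT or TTTAC on either strand, the core letters preferred by HOX proteins of the HOXD13 class.
EFNA5: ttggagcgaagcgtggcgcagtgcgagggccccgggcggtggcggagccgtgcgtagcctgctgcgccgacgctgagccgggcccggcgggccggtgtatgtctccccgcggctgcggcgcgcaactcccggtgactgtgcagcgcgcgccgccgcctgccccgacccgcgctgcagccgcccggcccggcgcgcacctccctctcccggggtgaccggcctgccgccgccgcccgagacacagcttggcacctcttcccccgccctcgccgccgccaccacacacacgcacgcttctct
EFNA3: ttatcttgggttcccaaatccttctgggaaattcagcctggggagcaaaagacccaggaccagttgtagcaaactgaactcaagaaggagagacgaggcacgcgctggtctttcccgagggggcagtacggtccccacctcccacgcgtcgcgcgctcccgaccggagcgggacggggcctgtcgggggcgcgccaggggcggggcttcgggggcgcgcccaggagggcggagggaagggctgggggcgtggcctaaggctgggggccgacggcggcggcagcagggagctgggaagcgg
EFNB2: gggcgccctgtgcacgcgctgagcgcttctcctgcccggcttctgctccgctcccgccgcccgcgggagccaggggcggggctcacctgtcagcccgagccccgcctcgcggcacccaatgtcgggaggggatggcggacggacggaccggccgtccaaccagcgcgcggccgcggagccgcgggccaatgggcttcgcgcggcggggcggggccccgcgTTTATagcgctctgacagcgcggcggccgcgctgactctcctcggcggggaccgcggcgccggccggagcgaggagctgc
Every member matched a RefSeq promoter window, with 13 windows for the 10 genes. TTTAT was found in windows of EFNB2 and EPHA7, which makes 2 of 13 windows, and TTTAC in none of them. Over all 35116 windows, 34.9% held TTTAT and 28.1% held TTTAC, and 48.2% held at least one of them. These shares cover windows of any G and C content, so nothing is read from the members' count beside them. The 13 windows also hold overlapping windows of EPHA7 and of EPHB2, which were counted separately. The EFNB2 match starts 30 bases before the annotated start, in the stretch TTTATA, which also resembles a TATA box. The longer HOXD13 sites CCAATAAA and CTCGTAAA, searched on both strands, were in 0.934% and 0.137% of all windows and in no window of the 10 genes. The 3 windows shown were rich in G and C, at 78.0% for EFNA5, 69.3% for EFNA3 and 78.7% for EFNB2, against a median of 58.7% over all windows.

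Total expected counts were 8530487 and 8335067 in the HOXD13 libraries, and 7662978 and 6881110 in the empty-vector libraries. HOXD13 itself had 88 and 104 counts in the HOXD13 libraries and 0 counts in both empty-vector libraries, which matches the labels. All 11 luminal prostate markers examined, among them KLK3, reached at least 1 FPKM (fragments scaled to transcript length and library size, a level per length). Their summed level was 5210 and 5314 FPKM with HOXD13 and 3832 and 3874 FPKM with the empty vector. KLK3 made up most of that sum, at 3140 and 3255 FPKM with HOXD13 and 2044 and 2074 FPKM with the empty vector. Of the 11 markers 6 were called higher, 1 lower and 4 neither by edgeR, against 7.91% higher and 8.11% lower over all genes tested. The marker called lower was HOXB13 (log2 fold change -0.11, edgeR adjusted p = 0.0353). KRT8 and KRT18, which were not called, had log2 fold changes of -0.036 and -0.034. Of 6 endothelial markers, CDH5 had no value and was counted as 0, KDR, ROBO4 and TEK did not exceed 0.12 FPKM, and VWF was at 3.46 and 3.10 FPKM with HOXD13 and at 2.28 and 2.26 FPKM with the empty vector. The summed endothelial markers were at 4.15 and 4.31 FPKM with HOXD13 and at 2.94 and 3.17 FPKM with the empty vector, and 2 of 6 reached 1 FPKM. Of 3 basal markers, KRT5 and TP63 had no value and were counted as 0, and KRT14 was at 3.78 and 3.36 FPKM with HOXD13 and at 1.67 and 1.24 FPKM with the empty vector. Of 6 fibroblast markers, summed to 6.89 and 6.48 FPKM with HOXD13 and 6.24 and 7.21 FPKM with the empty vector, 1 reached 1 FPKM, and COL1A2 and DCN had no value and were counted as 0. Of 4 leukocyte markers, summed to 34.01 and 36.84 FPKM with HOXD13 and 31.67 and 30.55 FPKM with the empty vector, 2 reached 1 FPKM, and CD3E was at 0. LYZ made up most of that sum, at 33.13 and 35.20 FPKM with HOXD13 and 30.52 and 29.57 FPKM with the empty vector. PTPRC did not exceed 1.64 FPKM. The part of these markers in the ephrin and Eph values was not tested. In bulk RNA, more cells with a transcript and more transcript per cell cannot be told apart.

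The ephrin-A ligands EFNA5, EFNA1 and EFNA3 were the most abundant members per length, and the receptor EPHB4 came before EFNA4. In both groups the order of the levels in FPKM was EFNA5, EFNA1, EFNA3, EPHB4, EFNA4, EFNB2, EPHB3, EFNB1, EPHB2 and EPHA7, and the libraries of neighbours in that order did not overlap except for EPHB2 and EPHA7. The levels spanned 60.75 FPKM for EFNA5 in HOXD13 replicate 1 to 0.95 FPKM for EPHA7 in empty-vector replicate 2. The 4 ephrin-A members summed to 145.29 and 152.36 FPKM in the HOXD13 libraries and to 113.33 and 115.34 FPKM in the empty-vector libraries. The 4 receptor members summed to 33.80 and 31.99 FPKM with HOXD13 and to 28.02 and 27.92 FPKM with the empty vector. Both sums were therefore higher in each HOXD13 library than in each empty-vector library. The ephrin-A sum holds EFNA5, chosen for its rise, so part of its difference was fixed by that choice. The 2 ephrin-B members summed lower with HOXD13, to 11.81 and 11.59 FPKM against 12.75 and 13.16 FPKM. The ephrin members together, EFNA5 included, held 4.65 and 5.13 times the FPKM of the receptor members with HOXD13. With the empty vector they held 4.50 and 4.60 times. Because EFNA5 was chosen for its rise, no shift of ligands over receptors is read from these ratios.

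**Figure D1:**
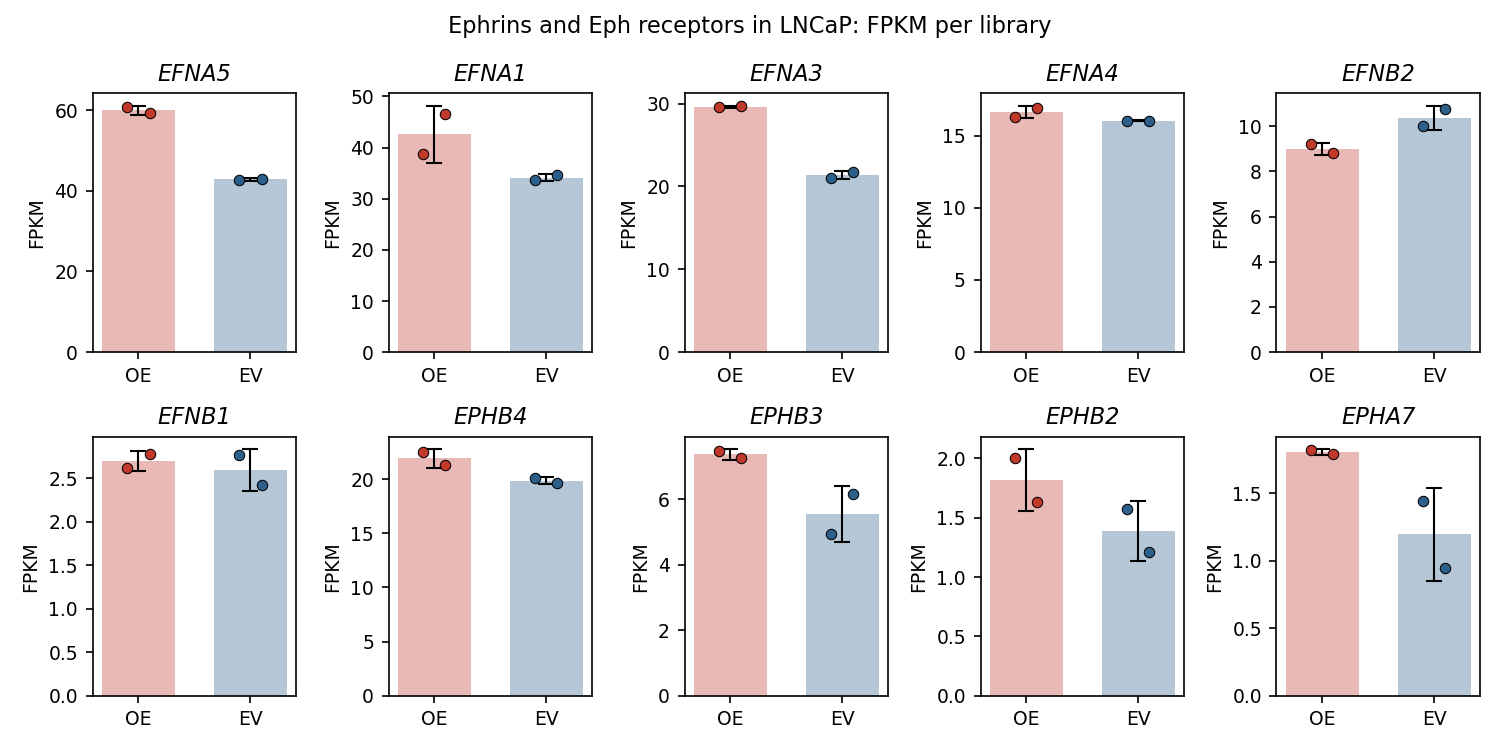
Level of each of the 10 genes in FPKM (vertical axes from 0, a scale of its own for each gene) in the HOXD13 (OE, red) and empty-vector (EV, blue) libraries. Points are libraries, bars are means and error bars are SD over 2 libraries. In FPKM both HOXD13 libraries lie above both empty-vector libraries for 8 genes. Among these are EFNA5, chosen for its rise, and EFNA4, whose groups overlap in CPM. They lie below for EFNB2, and the groups overlap for EFNB1. In CPM, both HOXD13 libraries lay above both empty-vector libraries for 27.7% of all genes tested and below for 27.2%.

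EFNA5 (gene ID 1946), the gene of ephrin-A5, had 2790 and 2657 expected counts in the HOXD13 libraries and 1759 and 1594 in the empty-vector libraries. Its level was 60.75 and 59.20 FPKM with HOXD13, against 42.62 and 43.01 FPKM with the empty vector. The mean was 59.98 ± 1.10 FPKM with HOXD13 and 42.82 ± 0.28 FPKM with the empty vector (SD, n = 2 each), a ratio of 1.40. On normalized counts the log2 fold change was 0.47 (edgeR). EFNA5 made up 41.8% and 38.9% of the summed ephrin-A FPKM with HOXD13 and 37.6% and 37.3% with the empty vector.

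Of the 9 other genes, 4 were called higher with HOXD13 and none lower by the edgeR quasi-likelihood test at a Benjamini-Hochberg adjusted p under 0.05. Over all 14112 genes tested, 7.91% were called higher and 8.11% lower. Since the rise of EFNA5 chose the family, nothing is read from these shares beside the members' count. At an unadjusted p under 0.05, 5 of the 9 were higher and 1, EFNB2, was lower, where 13.8% of all genes tested were higher and 14.2% lower. The DESeq2 Wald test gave an adjusted p to 4 of the 9, of which 1 was called higher and none lower (6.67% and 8.15% of all genes with an adjusted p). Limma on log2(FPKM + 1) called 1 of the 9 higher and none lower (2.94% and 1.93% of all genes fitted). In counts scaled to library size (CPM), both HOXD13 libraries lay above both empty-vector libraries for 6 of the 9 genes and below them for 1, EFNB2; these shares were 27.7% and 27.2% over all genes tested. The median log2 fold change of the 9 genes was 0.30, against 0.00379 over all genes tested.

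**Figure D2:**
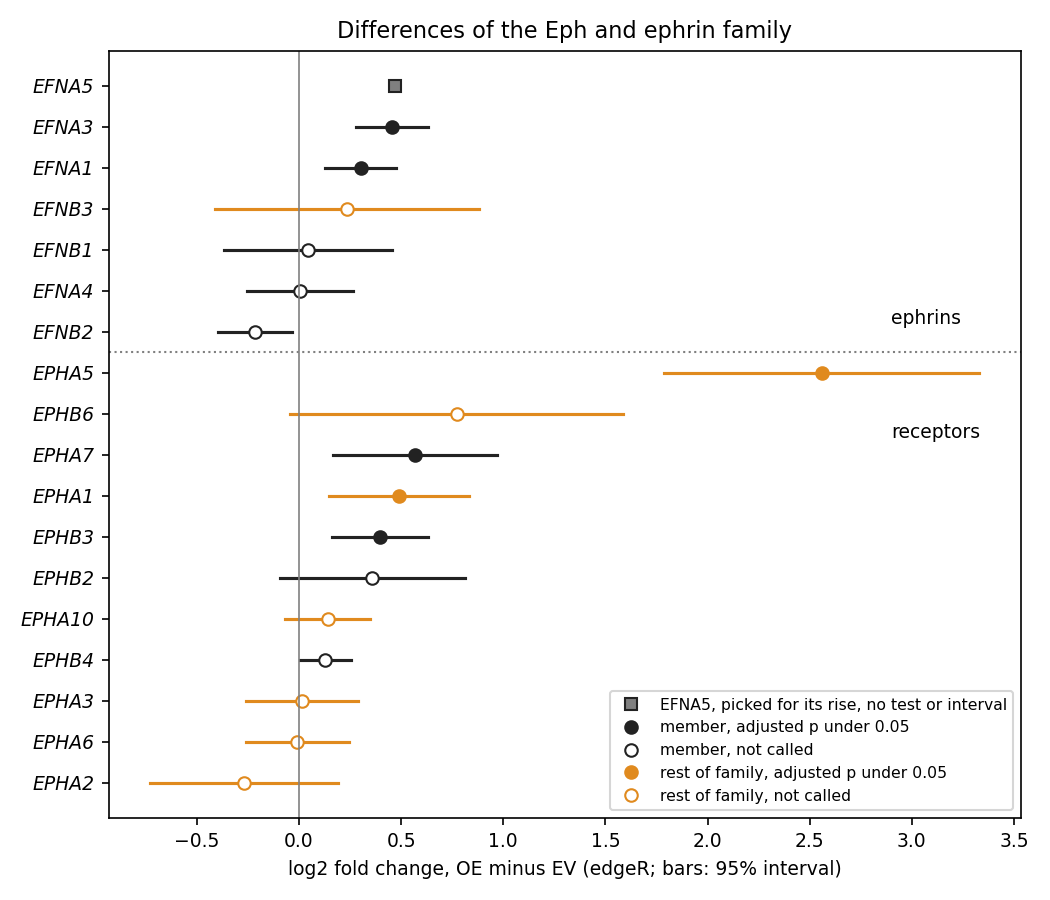
Log2 fold change of HOXD13 over empty vector (horizontal axis, edgeR, bars are 95% intervals) for the 10 members (black; EFNA5 as a grey square with no test or interval) and the 8 other tested family genes (orange). Filled circles passed an adjusted p under 0.05; no filled circle lies below 0, and EPHA5 stands at 2.56.

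Among the ligands of the A class, EFNA3 and EFNA1 rose with HOXD13 and EFNA4, their neighbour on chromosome 1, was not called. EFNA3 had 447 and 439 counts with HOXD13 and 286 and 265 with the empty vector, which is 29.54 and 29.69 FPKM against 21.03 and 21.70 FPKM. The groups were far apart relative to their spread, at 29.62 ± 0.11 FPKM with HOXD13 and 21.37 ± 0.47 FPKM with the empty vector (SD, n = 2 each; log2 fold change 0.46, SE 0.0864, edgeR adjusted p = 0.000276). EFNA3 was called under all 12 alternatives, at log2 fold changes from 0.43 to 0.48.

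EFNA1, whose product is the ligand best known for activating EphA2, had 516 and 608 counts with HOXD13 and 404 and 375 with the empty vector, or 38.69 and 46.54 FPKM against 33.66 and 34.59 FPKM. Both HOXD13 libraries were higher, but replicate 2 stood well above replicate 1. The log2 fold change was 0.30 (SE 0.0842, edgeR adjusted p = 0.0123). Without HOXD13 replicate 2 it was 0.16 and the call was lost (edgeR adjusted p = 0.321), and it was also lost without empty-vector replicate 1 (0.0658); without HOXD13 replicate 1 the log2 fold change was 0.43. The DESeq2 Wald test (adjusted p = 0.0800) and limma on log2(FPKM + 1) (adjusted p = 0.112) did not call it.

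EFNA4 had 169 and 173 counts with HOXD13 and 153 and 138 with the empty vector. In CPM this was 19.7 and 20.7 with HOXD13 and 20.1 and 20.2 with the empty vector, so that the groups overlapped (log2 fold change 0.005, 95% interval -0.26 to 0.27, edgeR adjusted p = 0.987). Per length, EFNA4 was at 16.31 and 16.93 FPKM with HOXD13 and at 16.02 and 16.04 FPKM with the empty vector. The deposited length of EFNA4, which differs between libraries, was 1231 and 1243 bases in the HOXD13 libraries and 1262 and 1266 bases in the empty-vector libraries. Per length the groups were thus apart, with a shorter length in both HOXD13 libraries, while in CPM they overlapped.

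EFNA4, EFNA3 and EFNA1 follow one another on chromosome 1, with ADAM15 before and SLC50A1 after them. The level of EFNA3 relative to EFNA4 was 1.81 and 1.75 in the HOXD13 libraries and 1.31 and 1.35 in the empty-vector libraries, as a ratio of FPKM. That of EFNA1 relative to EFNA4 was 2.37 and 2.75 with HOXD13 and 2.10 and 2.16 with the empty vector. Both ratios, chosen after the values were seen and given with no test, were higher in each HOXD13 library than in each empty-vector library. ADAM15, a metalloproteinase gene, had a log2 fold change of 0.15 (edgeR adjusted p = 0.00296) and SLC50A1, a sugar transporter gene, one of 0.15 (0.0524). RefSeq also annotates a readthrough transcript of EFNA4 and EFNA3, which was not analysed here; the expected counts of EFNA1, EFNA3 and EFNA4 were whole numbers in every library.

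**Figure D3:**
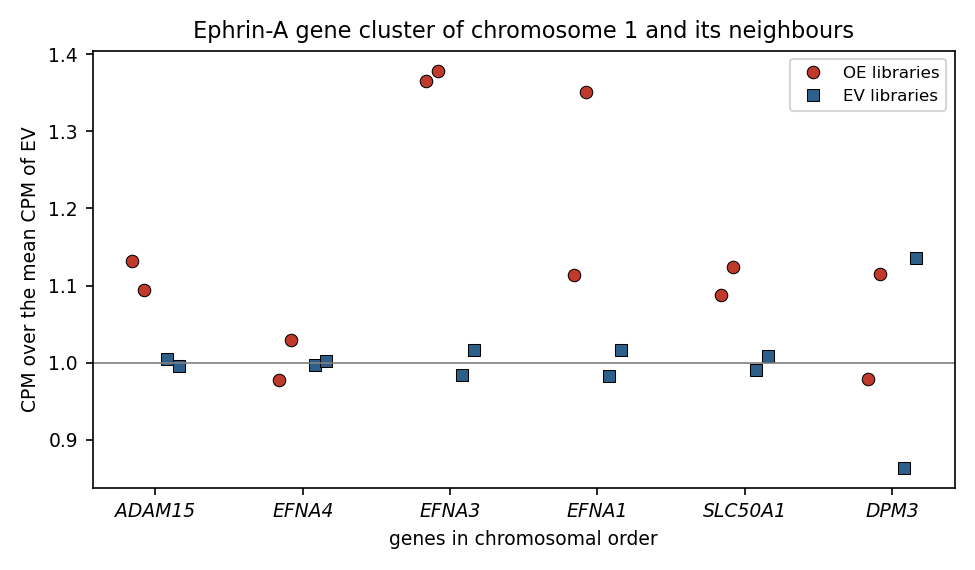
CPM of the 3 ephrin-A genes of chromosome 1 and their neighbours in each library, divided by the mean CPM of the empty-vector libraries (vertical axis), with genes in chromosomal order from left to right. HOXD13 libraries are red circles and empty-vector libraries blue squares; EFNA3 and EFNA1 lie above 1 in both HOXD13 libraries, and those of EFNA4 lie on either side of 1.

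The ephrin-B members did not pass the test. EFNB2, the gene of ephrin-B2, a ligand of EphB4 known from the border of arteries and veins, had 348 and 326 counts with HOXD13 and 340 and 328 with the empty vector, or 9.19 and 8.81 FPKM against 9.99 and 10.74 FPKM. Per length and depth both HOXD13 libraries were below both empty-vector libraries, with a log2 fold change of -0.22 (95% interval -0.40 to -0.03, edgeR adjusted p = 0.0997). Under the 12 alternatives the log2 fold change stayed between -0.27 and -0.17, and the adjusted p between 0.0947 and 0.399. EFNB1, the gene of ephrin-B1, which is linked to craniofrontonasal syndrome, was at 2.62 and 2.78 FPKM with HOXD13 and at 2.76 and 2.42 FPKM with the empty vector. Its groups overlapped (log2 fold change 0.04, 95% interval -0.37 to 0.45, edgeR adjusted p = 0.926).

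Among the 4 receptors, EPHB3 and EPHA7 were called higher and EPHB2 and EPHB4 were not called. EPHB3, a receptor known for positioning cells along intestinal crypts, had 272 and 258 counts with HOXD13 and 162 and 181 with the empty vector, or 7.48 and 7.26 FPKM against 4.95 and 6.16 FPKM. Both HOXD13 libraries were higher, and the empty-vector libraries were further from each other than the HOXD13 libraries were (7.37 ± 0.16 FPKM with HOXD13 and 5.56 ± 0.86 FPKM with the empty vector, SD, n = 2 each; log2 fold change 0.40, SE 0.115, edgeR adjusted p = 0.0152). The call was lost without empty-vector replicate 1, where the log2 fold change was 0.24 (edgeR adjusted p = 0.313). Limma on log2(FPKM + 1) did not call it either (adjusted p = 0.134).

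EPHA7, a receptor of ephrin-A ligands, ephrin-A5 among them, had 104 and 100 counts with HOXD13 and 74 and 44 with the empty vector, or 1.82 and 1.79 FPKM against 1.44 and 0.95 FPKM. The HOXD13 libraries lay close together and above both empty-vector libraries (log2 fold change 0.57, SE 0.197, edgeR adjusted p = 0.0465). The call depended on single libraries. Without empty-vector replicate 2 the log2 fold change was 0.31 (edgeR adjusted p = 0.429), without empty-vector replicate 1 it was 0.90, and the call was lost without HOXD13 replicate 1 (0.122) or 2 (0.0929). Fold changes of all genes also ran higher at low counts, with a median log2 fold change of 0.147 in the lowest and -0.0628 in the highest of 10 bins of expression, and EPHA7 lay in bin 3, where the median was 0.0676. With this trend removed the EPHA7 call was lost (log2 fold change 0.50, edgeR adjusted p = 0.0946), as it was with limma on log2(FPKM + 1) (0.36, adjusted p = 0.267).

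EPHB2, which also binds ephrin-A5, had 83.55 and 66.50 expected counts with HOXD13 and 59 and 41 with the empty vector, or 2.0 and 1.63 FPKM against 1.57 and 1.21 FPKM. The lower HOXD13 library and the higher empty-vector library nearly met (log2 fold change 0.36, 95% interval -0.09 to 0.81, edgeR adjusted p = 0.305). EPHB4, the receptor of ephrin-B2, was the most abundant receptor at 22.50 and 21.31 FPKM with HOXD13 and 20.06 and 19.60 FPKM with the empty vector. Both HOXD13 libraries were slightly higher (845 and 782 counts against 677 and 594; log2 fold change 0.13, 95% interval 0.003 to 0.25, edgeR adjusted p = 0.166). EPHB2 and EPHB3 had fractional counts in at least 1 library, so RSEM divided some of their reads among genes, a part that was not measured here; the counts of the other 8 members were whole.

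**Figure D4:**
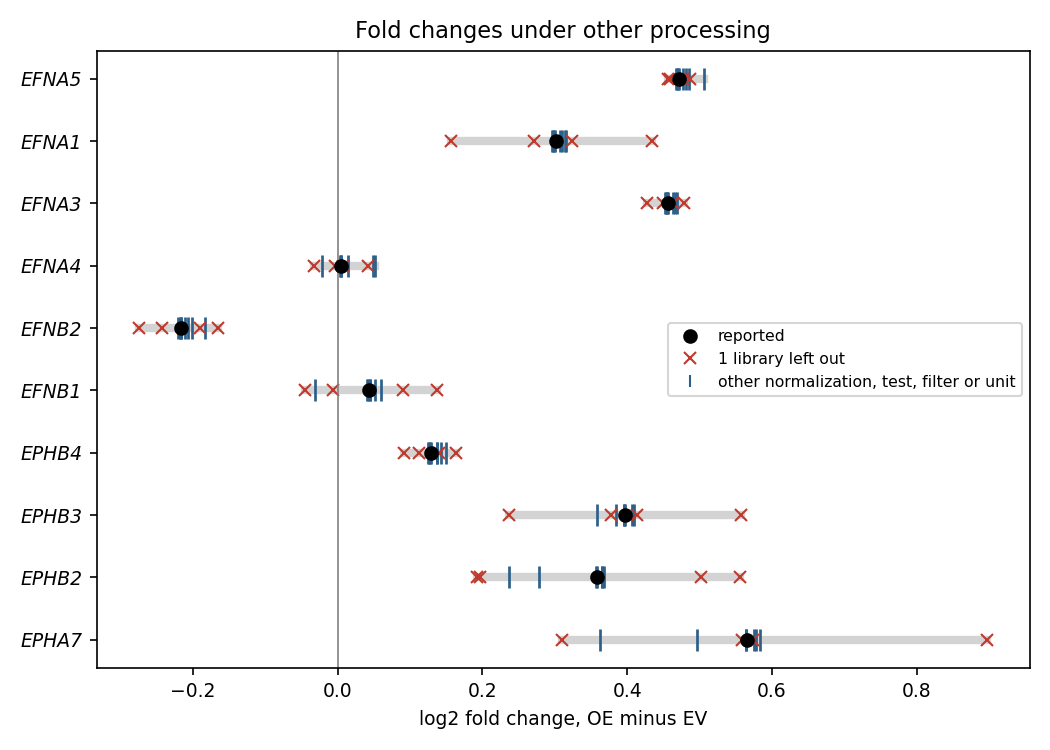
Log2 fold change of HOXD13 over empty vector (horizontal axis) for each member as reported (black circle), with 1 library left out (red crosses) and with another normalization, test, filter or unit (blue ticks). EFNA5 and EFNA3 keep a narrow range, EFNA4 and EFNB1 fall on both sides of 0, and EPHA7 spreads from 0.31 to 0.90.

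In the rest of the family, the receptor gene EPHA5 showed the greatest difference and EPHA1 also rose. Of these 12 genes 8 had enough counts to be tested, of which 2 were called higher and none lower by edgeR, against 7.91% higher and 8.11% lower over all genes tested; none was lower at an unadjusted p under 0.05. DESeq2 gave an adjusted p to 1 of the 8 and limma to 6, and neither called any of those. EPHA5, a receptor of ephrin-A5 known mainly from the nervous system, had 62 and 43 counts in the HOXD13 libraries and 8 and 7 in the empty-vector libraries. Its level stayed low, at 0.92 and 0.65 FPKM with HOXD13 and 0.13 FPKM in both empty-vector libraries (log2 fold change 2.56, SE 0.378, edgeR adjusted p = 8.98e-06). With each library left out in turn the log2 fold change was 2.29 to 2.78 and the call was kept; the DESeq2 Wald test gave EPHA5 no adjusted p, and it was below the minimum of 1 FPKM of the limma fits. EPHA1 was at 3.88 and 4.89 FPKM with HOXD13 and at 2.97 and 3.22 FPKM with the empty vector (112 and 138 counts against 77 and 75; log2 fold change 0.49, edgeR adjusted p = 0.0440). The EPHA1 call was lost without HOXD13 replicate 2 (edgeR adjusted p = 0.411, log2 fold change 0.31), empty-vector replicate 1 (0.197) or 2 (0.0632), with the expression trend removed (0.0860) and with limma on log2(FPKM + 1) (0.157).

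The remaining receptors that were tested gave no call. EPHA10 had 277.23 and 282.29 counts with HOXD13 and 231.65 and 201.25 with the empty vector, and EPHA6 had 184 and 201 against 185 and 146. EPHA3 had 199.01 and 160.28 counts with HOXD13 and 176.48 and 127.92 with the empty vector, and EPHA2 had 55.45 and 54.50 against 57 and 55. These 4 receptors had log2 fold changes from -0.27 for EPHA2 to 0.14 for EPHA10. EPHB6, which lacks kinase activity, had 23 and 27 counts with HOXD13 and 16 and 9 with the empty vector (log2 fold change 0.77, edgeR adjusted p = 0.207). The ligand EFNB3 had 31 and 38 counts with HOXD13 and 26 and 24 with the empty vector (log2 fold change 0.24, edgeR adjusted p = 0.693). EFNA2 had 2 and 3 counts with HOXD13 and 3 and 2 with the empty vector, EPHA4 and EPHB1 were at 0 in all 4 libraries, and EPHA8 had no value.

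Genes that carry or end Eph and ephrin signals were counted in 3 lists. Among 31 tested effectors of forward signalling, 2 were called higher and 1 lower, no larger a share than the 7.91% and 8.11% over all genes tested (median log2 fold change -0.00534). The called genes are given as single genes, with nothing read about the list. PIK3R1, a regulatory subunit of phosphoinositide 3-kinase, rose to 27.87 and 27.97 FPKM with HOXD13, against 22.64 and 22.59 FPKM with the empty vector (log2 fold change 0.32, edgeR adjusted p = 9.17e-06), and was called under all 12 alternatives; its expected counts were fractional. INPPL1, the phosphatase SHIP2, rose by a log2 fold change of 0.16 (edgeR adjusted p = 0.0329), a call that was lost when any 1 library was left out (0.0787 to 0.286). CFL1, the actin-severing protein cofilin, fell to 448.43 and 457.41 FPKM with HOXD13, against 505.07 and 492.15 FPKM with the empty vector (log2 fold change -0.15, edgeR adjusted p = 0.000975); limma on log2(FPKM + 1) gave an adjusted p of 0.0570. DESeq2 gave INPPL1 an adjusted p of 0.169 and limma one of 0.125.

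Of 9 tested partners of reverse signalling, 1 was called lower and none higher by edgeR, against 8.11% lower and 7.91% higher over all genes tested (median log2 fold change -0.0640). None was higher at an unadjusted p under 0.05, nor among the 8 with an adjusted p from DESeq2 or the 9 fitted by limma. PTPN13, a tyrosine phosphatase that binds ephrin-B, fell to 8.41 and 8.82 FPKM with HOXD13, against 9.50 and 11.10 FPKM with the empty vector (log2 fold change -0.27, edgeR adjusted p = 0.00753), and the DESeq2 Wald test also called it lower (adjusted p = 0.0496). Without empty-vector replicate 2 it was -0.16 and not called (edgeR adjusted p = 0.252), and limma on log2(FPKM + 1) gave an adjusted p of 0.221.

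Of 8 tested genes for shedding, dephosphorylation and degradation, 3 were called higher and none lower by edgeR, against 7.91% higher and 8.11% lower over all genes tested (median log2 fold change 0.14). At an unadjusted p under 0.05, 1, ACP1, was lower. DESeq2 called 1 higher and none lower of the 6 with an adjusted p, and limma none of 8 in either direction. NCSTN, a part of gamma-secretase, which cleaves ephrin-B and EphB stubs within the membrane, rose to 43.29 and 42.39 FPKM with HOXD13, against 34.00 and 38.11 FPKM with the empty vector (log2 fold change 0.24, edgeR adjusted p = 0.00400). ADAM10, the sheddase of ephrin-A ligands in complex with EphA receptors, rose to 37.22 and 34.99 FPKM with HOXD13, against 30.92 and 32.48 FPKM with the empty vector (log2 fold change 0.17, edgeR adjusted p = 0.0212). Both calls were lost without empty-vector replicate 1, where NCSTN had a log2 fold change of 0.15 (edgeR adjusted p = 0.229) and ADAM10 one of 0.13 (0.275); the ADAM10 call was also lost without HOXD13 replicate 1 (0.170). The DESeq2 Wald test kept the call of NCSTN (adjusted p = 0.0441) and not that of ADAM10 (0.128).

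The genes whose profile over the 4 libraries was nearest to that of EFNA5 were ranked by the Euclidean distance between log2 CPM values centred on each gene's mean. Among the 5 nearest of 14111 genes were SIDT2, PHF11, UBAC2-AS1 and TXNIP, at distances of 0.0151 to 0.0324. PHF11 had only 29.33 and 27.52 counts with HOXD13 and 18.41 and 16.01 with the empty vector. UBAC2-AS1 had 25 and 24 against 15 and 14, and edgeR called neither gene. The distance does not weigh a gene by its counts. SIDT2 was at 20.06 and 19.40 FPKM with HOXD13 and at 14.02 and 14.29 FPKM with the empty vector, and TXNIP at 60.88 and 58.20 FPKM with HOXD13 and at 41.46 and 42.79 FPKM with the empty vector. Within the family EFNA3 was nearest, at rank 9 and a distance of 0.0422, followed by EPHB3 at rank 793, and EFNB2 was farthest, at rank 11620. The distance is a description over 4 libraries of 2 groups and carries no test.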

How the data were processed

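Expression was measured by RNA-seq of polyadenylated RNA in 4 LNCaP libraries. Expected counts per RefSeq gene and FPKM were deposited by the authors in a table for each library, per the file headers, and a joint deposited table holds the same FPKM. Bowtie2 and RSEM and the genome builds hg18 and hg19 are named in the submitters' processing notes; which version was used, and for what, is not given in the sources, so no position on those builds is printed. A gene that a library's table does not list was counted as 0. Expected counts were rounded for testing, and the deposited gene lengths, in bases, were used as they stand.

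The comparison was HOXD13 minus empty vector, fitted over the whole table with the quasi-likelihood test of edgeR 4.0.16 (R 4.3.3, TMM, filterByExpr, robust fit), which kept 14112 genes, with Benjamini-Hochberg adjustment over all of them and a threshold of 0.05. Each SE was taken from the F statistic as |log2 fold change|/√F. Log2 CPM used a prior count of 2. Alternatives were DESeq2 1.42.0 (size factors, Wald test), limma 3.58.1 on log2(FPKM + 1) and log2(FPKM + 0.1) with at least 1 FPKM in 2 libraries, other count filters, a replicate block, cyclic loess offsets, a threshold of 0.01 and each library left out. The fit was tested on simulated data. Counts of replicates differed by more than sampling noise (chi-square per degree of freedom of 1.75 for the HOXD13 pair and 1.57 for the empty-vector pair), and the biological coefficient of variation was 2.70%.

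The members and the gene lists, which came from textbook knowledge, were chosen with earlier results of these data known. Named are all members, family genes with counts, up to 4 called genes of each other list, HOXD13 and the 5 genes nearest to EFNA5; ADAM15, SLC50A1, ACP1 and the markers were named beyond that rule, and a few genes that it covers are not reported here. Promoter sequences are RefSeq's on GRCh38.p14.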

Additional observations from a re-analysis of the deposited data

How the results depend on the processing

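EFNA3 kept a log2 fold change of 0.43 to 0.48 under the alternatives run; that of EFNA5, chosen for its rise, was 0.46 to 0.51. Members past the threshold, with EFNA5 counted though its choice fixed its call, numbered 5, and 2 with the DESeq2 Wald test (of 5 with an adjusted p), 2 with limma on log2(FPKM + 1), 2 on log2(FPKM + 0.1) and 2 at an adjusted p under 0.01, so that EFNA3 was the only other member in each case, and 3 to 4 with 1 library left out. No alternative called a member lower. Over all 14112 genes tested, 1116 (7.91%) were higher and 1144 (8.11%) lower, and an adjusted p under 0.01 gave 647 and 633. The DESeq2 Wald test gave 473 (6.67%) and 578 (8.15%) of 7088 genes with an adjusted p. Limma on log2(FPKM + 1) gave 398 (2.94%) and 261 (1.93%) of 13520 genes fitted, and limma on log2(FPKM + 0.1) gave 382 and 265 of 13520. With 1 library left out, 751 to 927 genes were higher and 714 to 1064 lower. EFNA4 changed sign with the expression trend removed (log2 fold change -0.0217) and over the left-out libraries (-0.0325 to 0.0417), and EFNB1 likewise (-0.0311, and -0.0449 to 0.137); the cause was not tested. With the replicate number as a block, 1226 genes were higher, 1297 lower and the same 4 members beside EFNA5 were called. Same-numbered libraries hardly deviated together (correlation of deviations 0.0703 over genes). A single correlation over all genes cannot tell whether the replicate numbers pair libraries for some genes. The depth limits EPHA7, EPHB2 and EFNB1, with at most 104 counts in a library.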
